A study of Mus musculus with 15 samples.

Results

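The desmosome is the spot-shaped junction that fastens neighbouring epithelial cells to each other and anchors their keratin filaments. Described here are 10 genes that encode its core: the desmosomal cadherins *Dsg1a*, *Dsg2*, *Dsg3*, *Dsc2* and *Dsc3*, the plakin *Dsp*, the armadillo-repeat genes *Pkp1*, *Pkp3* and *Jup*, and the membrane protein gene *Perp*. They were chosen by name among the 54232 genes of the count table, and all 10 were among the 22151 genes with enough counts to be tested. RNA came from dissected palatal shelves of wild-type (WT) mice, whose strain and sex are not given in the sources used here, at 4 embryonic stages named by day (E13.5, E14.5, E15.5 and E16.5) and at birth (P0). Each stage had 3 libraries. Palates of 3 embryos went into every library, replicates are therefore pools, and nothing in the labels ties a pool to a litter. There was no treatment and no mutant group in these libraries.

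In a desmosome, desmogleins (*Dsg* genes) and desmocollins (*Dsc* genes) bind across the gap between cells. Inside the cell their tails hold plakoglobin (the product of *Jup*) and the plakophilins (*Pkp* genes), which in turn hold desmoplakin (*Dsp*), and desmoplakin grips the keratin filaments. *Dsg2* and *Dsc2* are known from simple and stratified epithelia and from the heart, whereas *Dsg1*, *Dsg3*, *Dsc3* and *Pkp1* are known mainly from stratified epithelia such as those of skin and mouth. *Perp*, a target of the transcription factor p63, is needed for desmosome assembly in stratified epithelia. The palate is covered by such an epithelium on its oral side and by a largely ciliated and glandular epithelium on its nasal side, and its shelves fuse through an epithelial seam.

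Positions are on mouse genome build GRCm38, and the exons of no member overlapped another gene on the same strand. *Dsp* lies on chromosome 13 (38151294 to 38198577, forward strand), *Jup* on chromosome 11 (100368958 to 100397763, reverse strand), *Pkp1* on chromosome 1 (135871395 to 135919207, reverse strand), *Pkp3* on chromosome 7 (141078218 to 141090510, forward strand) and *Perp* on chromosome 10 (18845020 to 18857073, forward strand).

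Promoters are shown for *Dsp* and *Jup*, which encode the linkers that every desmosome uses and which were among the 3 members with the highest levels per length at the youngest stage. The sequences are the 250 bases upstream of the RefSeq gene start on GRCm38.p6, chr13:38151044-38151293 (forward strand) and chr11:100397791-100398040 (reverse strand), written 5′ to 3′ on the strand of the gene. Capitals mark each match on either strand to GGGCGG, the GC box that factors of the SP and KLF families are known to bind.
Dsp: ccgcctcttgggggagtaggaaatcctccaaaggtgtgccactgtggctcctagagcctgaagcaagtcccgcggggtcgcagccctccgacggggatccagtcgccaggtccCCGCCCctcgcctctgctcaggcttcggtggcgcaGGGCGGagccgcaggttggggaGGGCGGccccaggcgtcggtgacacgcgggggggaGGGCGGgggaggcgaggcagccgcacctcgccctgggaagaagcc
Jup: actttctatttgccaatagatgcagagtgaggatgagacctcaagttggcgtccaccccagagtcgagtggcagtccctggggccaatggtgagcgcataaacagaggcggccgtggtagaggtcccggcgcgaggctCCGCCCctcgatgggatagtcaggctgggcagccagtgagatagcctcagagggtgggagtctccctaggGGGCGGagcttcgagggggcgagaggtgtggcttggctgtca
The *Dsp* window held 4 such matches and the *Jup* window 2, and 32.7% of 32851 RefSeq promoter windows of this length held at least 1. Both windows were rich in G and C, with 72.4% for *Dsp* and 62% for *Jup* against a median of 52.4% over all windows. They held 22 and 13 CpG dinucleotides against a median of 6. Neither window held TATAAA (12.4% of all windows), TGANTCA (6.75%), AACCGGTT (0.116%) or the paired core of the p53 family motif (0.49%), where N is any base and both strands were searched. A match or its absence describes only these letters.

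Libraries held 21.5 to 69.0 M counts (median 61.0 M), and replicates of a stage differed by far more than counting error (chi-square of 29.5 to 225 per degree of freedom). Levels are given as CPM, counts scaled to a common library total after TMM normalization, which corrects totals for differences in composition. All 8 markers of a pan-epithelial list (*Epcam*, *Cdh1* and others) and all 6 of a basal stratified list (*Krt5*, *Krt14*, *Trp63* and others) were detected in every library. Epithelial transcripts were thus present throughout, but these markers are not specific to oral epithelium. The samples also held other tissue: the summed level of 6 mesenchyme markers was 1342 CPM or more in every library. Choroid plexus markers, which do not belong to palate, summed to 1409 and 774.1 CPM in E14.5 replicates 1 and 3 and to 31.1 CPM in replicate 2, while each member differed by at most 1.821-fold between these 3 libraries. Their sum was 34.11, 45.68 and 138.2 CPM at E13.5 and 60.8, 489.1 and 256.3 CPM at P0, lowest of the P0 libraries in replicate 1, which was also lowest for 9 of 10 members, and its part in the P0 values was not tested. The pools also differed in sex-linked transcripts: the Y-linked *Ddx3y* was at 25.43 to 53.13 CPM in the 3 E14.5 libraries and at most 0.06475 CPM in the 3 of E16.5, and at each other stage at least 1 library had it at 16.13 CPM or more and at least 1 at 0.2007 CPM or less. Its part in the values was not tested. In bulk tissue, a lower number of epithelial cells and less RNA per cell cannot be told apart, and this holds for every level below.

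Per kilobase of transcript, which allows levels of different genes to be compared, the 10 members spanned about 2 orders of magnitude at E13.5. *Jup* was highest at 16.8 ± 1.71 CPM per kilobase (SD, n = 3), followed by *Perp* at 12.2 ± 5.55 and *Dsp* at 9.44 ± 2.96, and the libraries of these neighbours in the order overlapped. Every *Dsp* library lay above every library of the next 5 genes, *Pkp3*, *Dsc2*, *Dsc3*, *Dsg2* and *Pkp1*, which had means of 1.83 to 3.26 and overlapped from each gene to the next. *Dsg3* at 0.206 ± 0.146 and *Dsg1a* at 0.151 ± 0.143 were lowest and did not differ beyond their spread. At P0 *Perp* had the highest mean per length at 68.9 ± 35.1, with *Jup* at 29 ± 5.15, *Pkp1* at 26.6 ± 16.6 and *Dsp* at 24.5 ± 14.8. *Pkp1* ranked 8 of 10 in this order at E13.5 and 3 of 10 at P0, *Dsg1a* was still last at 1.4 ± 2.01, but at P0 the libraries of every pair of neighbours overlapped, so the order at birth is one of means only.

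**Figure D1:**
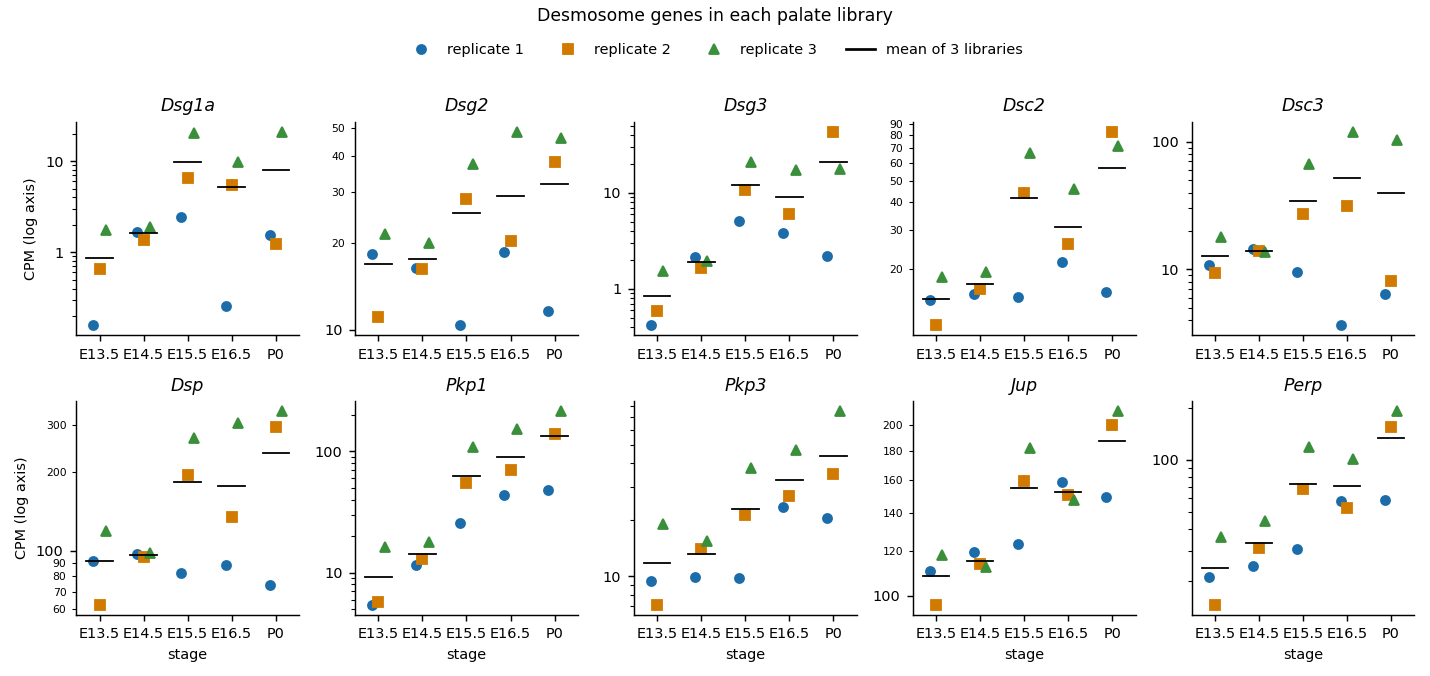
Level of each of the 10 desmosome genes in every library, in CPM on log axes, by stage; symbols are the 3 replicates and bars are stage means. *Dsg3* and *Pkp1* lie higher in all 3 E15.5 libraries than in any E14.5 library, as do *Dsg1a* and *Jup*, the latter between 96.3 and 211 CPM throughout.

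Between the earliest stage and birth all 10 members had positive fold changes relative to library totals, and 6 of them passed the test: *Dsg3*, *Dsc2*, *Pkp1*, *Pkp3*, *Jup* and *Perp* (edgeR's quasi-likelihood test of P0 against E13.5, p adjusted by the Benjamini-Hochberg method over all tested genes, threshold 0.05). Of all tested genes 29.8% were called higher in this comparison and 56.6% in either direction. The median log2 fold change of the members was 1.92, against 0.034 for all tested genes. The libraries of P0 and E13.5 did not overlap for 5 members (*Dsg3*, *Pkp1*, *Pkp3*, *Jup* and *Perp*), against 30.2% of all tested genes separated in that direction. The count was 4 without E13.5 replicate 2, 5 without P0 replicate 3 and 9 without P0 replicate 1. Of all tested genes 46.7%, 54.9% and 50.1% were called in either direction in these fits. *Dsg3*, *Pkp1*, *Jup* and *Perp* passed in each of 15 fits that left out 1 library, and *Dsc2* and *Pkp3* in 13 each. Across all 5 stages the same 6 genes passed, a share close to the 59.1% of all tested genes that did. When single libraries were dropped from that test, *Dsc2* passed in 5 of 15 fits and *Pkp3* in 8.

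The step from E14.5 to E15.5 was the only one between neighbouring stages in which any member passed. *Dsg3* and *Pkp1* were higher at E15.5, 2 of 10 members, against 12.7% of all tested genes. The median log2 fold change of the members was 1.21, against 0.0302 for all tested genes, and 4 members (*Dsg3*, *Pkp1*, *Jup* and *Dsc2*) had an unadjusted p under 0.05. All 3 E15.5 libraries lay above all 3 E14.5 libraries for *Dsg1a*, *Dsg3*, *Pkp1* and *Jup*, against 24% of tested genes. Both calls depended on single libraries: the count was 0 without any one of the E14.5 libraries, without E15.5 replicate 2 or without E15.5 replicate 3. In the 3 fits without an E14.5 library the log2 fold changes were 2.74, 2.56 and 2.68 for *Dsg3* and 2.01, 2.08 and 2.34 for *Pkp1*, and without E15.5 replicate 2 they were 2.75 and 2.24, close to those with all libraries (2.67 and 2.15). Without E15.5 replicate 3 they were 2.03 and 1.5. Calls over all tested genes fell as well, from 26.1% in either direction to 10.2% and 14.3% when replicate 1 or 2 of E14.5 was dropped. They fell to 13.1% and 13.3% when replicate 2 or 3 of E15.5 was dropped, but stood at 25.4% when E14.5 lacked replicate 3. *Dsg3* also missed the threshold without P0 replicate 3 (adjusted p 0.0532). The count was 1 without E13.5 replicate 1, E13.5 replicate 2 or E16.5 replicate 2, where 22.2%, 24.3% and 23.5% of all tested genes were called. It was 4 without E15.5 replicate 1 or P0 replicate 1, where 23.2% and 26% were called. Between E13.5 and E14.5, E15.5 and E16.5, and E16.5 and P0, 0 members passed with edgeR, 0 had an unadjusted p under 0.05 and 0 passed with DESeq2. Of all tested genes, edgeR called 0.00903%, 1.41% and 0.352% in these 3 steps, and DESeq2 called 4.51%, 9.28% and 3.01%.

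The 5 cadherin members form a cluster on chromosome 18 between 19960930 (the lower coordinate of *Dsc3*, reverse strand) and 20604521 (the upper coordinate of *Dsg2*, forward strand). Of the desmogleins, *Dsg3*, the main desmoglein of basal oral keratinocytes and an autoantigen of pemphigus, changed most. Its level was 0.416, 0.592 and 1.53 CPM in the E13.5 libraries (replicates 1 to 3) and 2.12, 1.64 and 1.97 CPM at E14.5. At E15.5 it was 5.07, 10.6 and 20.7 CPM, at E16.5 3.82, 5.98 and 17.1 CPM, and at P0 2.19, 43.3 and 17.6 CPM. Every later library was above every library of the first 2 stages, but P0 replicate 1 only just so, and the P0 libraries spanned a 19.75-fold range. The log2 fold change was 2.67 for E15.5 against E14.5 (standard error 0.907, adjusted p 0.0465) and 4.63 for P0 against E13.5 (standard error 0.995, adjusted p 0.00177).

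*Dsg2*, the desmoglein shared by simple and stratified epithelia, did not pass. It ranged from 11 to 21.5 CPM at E13.5, from 16.3 to 20 CPM at E14.5 and from 11.6 to 46.3 CPM at P0. Its log2 fold change for P0 against E13.5 was 0.919 (standard error 0.546, adjusted p 0.165), and the libraries overlapped. *Dsg1a*, 1 of 3 mouse copies of the desmoglein of the upper epidermal layers, was at 0.158, 0.662 and 1.75 CPM at E13.5 and at 1.55, 1.22 and 21.2 CPM at P0. In P0 replicate 3 it stood more than 10-fold above the other 2 P0 libraries, whose values lay within the E13.5 range. Its log2 fold change of 3.21 (standard error 1.35, adjusted p 0.0581) fell to 0.713 without P0 replicate 3. Of the stretches of 100 bases in *Dsg1a* transcripts, 24.6% also occur in *Dsg1b* or *Dsg1c*, and fragments that map to several places were not counted, so the counts of these copies are uncertain. With the 3 copies summed the log2 fold change was 2.88 (adjusted p 0.066).

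*Dsc2* passed the test between E13.5 and P0 while the other measured desmocollin member, *Dsc3*, did not. *Dsc2*, the broadly expressed desmocollin, was at 14.5, 11.1 and 18.3 CPM at E13.5, 15.3, 16.2 and 19.4 CPM at E14.5, and 14.9, 44 and 66.5 CPM at E15.5. It was at 21.4, 25.9 and 45.6 CPM at E16.5 and at 15.7, 83.2 and 71.6 CPM at P0. In P0 replicate 1 *Dsc2* lay inside the E13.5 range, so the groups overlapped. Its log2 fold change was 1.96 (standard error 0.585, adjusted p 0.0127). The adjusted p was 0.0514 without E13.5 replicate 2 and 0.0501 without P0 replicate 2.

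*Dsc3*, the desmocollin of the lower layers of stratified epithelia, did not pass relative to library totals and varied widely within the later stages. It was at 10.8, 9.31 and 18 CPM at E13.5 and at 14.6, 13.8 and 13.7 CPM at E14.5, a 1.066-fold range. At E15.5 it was at 9.46, 27.1 and 66.6 CPM, at E16.5 at 3.65, 31.4 and 120 CPM, and at P0 at 6.43, 8.05 and 104 CPM. Within E16.5 the libraries thus differed 32.94-fold and within P0 16.16-fold, and E16.5 held both its lowest and its highest value of the whole series. The log2 fold change for P0 against E13.5 was 1.63 (standard error 1.15, adjusted p 0.241) and became -0.783 without P0 replicate 3.

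The highest *Dsc3* library of E15.5, of E16.5 and of P0 was also the highest of its stage for 4 summed dental epithelium markers (*Amelx*, *Ambn*, *Enam* and *Shh*). Their summed level was 5.734 to 9.384 CPM in the E13.5 and E14.5 libraries and 5.023, 7.752 and 17.79 CPM at E15.5. It was 2.525, 15.22 and 74.33 CPM at E16.5 and 8.376, 4.33 and 64.83 CPM at P0. In the highest library of E16.5 and of P0 most of the sum was *Shh*, at 69.02 CPM in E16.5 replicate 3 and 56.25 CPM in P0 replicate 3. This gene encodes a secreted signal that palatal rugae also express. Over the 15 libraries, which share pools and scaling, log2 *Dsc3* and the log2 marker sum correlated with r = 0.911, and with r = 0.944 after the stage means were removed. The corresponding values were 0.727 and 0.847 for *Dsg1a*, and within stages at most 0.612 for every other member. The likeness of *Dsc3* to the dental sum did not hold in every stage. At E13.5 *Dsc3* was highest in replicate 3, where the dental sum was lowest (5.734 CPM). With the summed basal stratified markers, the within-stage r was 0.806 for *Dsc3* and 0.808 for *Dsg1a*. All 4 markers were detected in each library from E15.5 on, and *Amelx*, *Enam* or both were at 0 in 5 of the 6 earlier libraries. The part of dental epithelium in these values was not tested.

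*Dsp*, the plakin that grips keratin filaments, was at 91.6, 62.3 and 120 CPM at E13.5 and at 97.6, 94.8 and 98.2 CPM at E14.5. At E15.5 it was at 82.2, 195 and 270 CPM, at E16.5 at 88.5, 134 and 305 CPM, and at P0 at 74.1, 296 and 340 CPM. Replicate 1 of each of the last 3 stages lay within the range of E13.5 and the other 2 replicates above it. Its log2 fold change for P0 against E13.5 was 1.38 (standard error 0.574, adjusted p 0.0563), which did not pass. Without P0 replicate 1 it was 1.84 (adjusted p 0.0108).

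*Jup*, whose product plakoglobin also serves adherens junctions and is made in endothelium and heart, had the smallest fold change of the 6 genes that passed and the narrowest spread. It was at 111, 96.3 and 118 CPM at E13.5, 120, 114 and 112 CPM at E14.5, and 123, 159 and 182 CPM at E15.5. It was at 158, 150 and 148 CPM at E16.5 and at 149, 200 and 211 CPM at P0. No library of E15.5 or later was below any library of the first 2 stages, and the replicates of no stage differed by more than 1.477-fold. For P0 against E13.5 the log2 fold change was 0.787 (standard error 0.155, adjusted p 0.000997), and for E15.5 against E14.5 it was 0.426 (standard error 0.154, adjusted p 0.0584). The summed level of 5 endothelial markers also lay higher at P0 (401.9 to 619.2 CPM) than at E13.5 (277.6 to 372.9 CPM), and its part in the *Jup* values was not tested.

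Of the plakophilins, *Pkp1*, known from suprabasal stratified epithelium, rose most. It was at 5.43, 5.71 and 16.4 CPM at E13.5, 11.6, 13 and 17.8 CPM at E14.5 and 25.7, 54.3 and 108 CPM at E15.5. It was at 43.5, 70.7 and 154 CPM at E16.5 and at 48.3, 139 and 214 CPM at P0. The 9 later libraries all lay above the 6 earlier ones. The log2 fold change was 2.15 for E15.5 against E14.5 (standard error 0.673, adjusted p 0.034) and 3.87 for P0 against E13.5 (standard error 0.724, adjusted p 0.00071).

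*Pkp3*, found in desmosomes of nearly all epithelia, was at 9.4, 7.06 and 18.9 CPM at E13.5 and at 20.4, 35.1 and 75.6 CPM at P0. The groups did not overlap, with the lowest P0 library just above the highest of E13.5. Its log2 fold change was 1.89 (standard error 0.564, adjusted p 0.0125), with an adjusted p of 0.0539 without E13.5 replicate 2 and 0.0676 without P0 replicate 3.

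*Perp* was at 21.1, 14.6 and 35.7 CPM at E13.5, 24.5, 31 and 44.6 CPM at E14.5 and 30.5, 68.2 and 118 CPM at E15.5. It was at 58.2, 53.1 and 102 CPM at E16.5 and at 58.5, 154 and 191 CPM at P0. All 6 libraries of E16.5 and P0 were above all 6 of E13.5 and E14.5, and those of E15.5 overlapped both sets. For P0 against E13.5 the log2 fold change was 2.5 (standard error 0.547, adjusted p 0.00202).

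Within their families, *Dsg3* and *Pkp1* took a larger share of transcripts in every library from E15.5 on than in any earlier library, and the share of *Dsc3* varied from pool to pool. Expressed per length, *Dsg2* made up 82.2 ± 9.11% of desmoglein transcripts at E13.5 (SD, n = 3), 38.8 ± 6.85% at E15.5 and 43.2 ± 16.5% at P0. *Dsg3* made up 7.84 ± 3.28%, 36 ± 2.43% and 40.1 ± 24% at these stages. At E14.5 *Dsg2* held 70.6 ± 1.95% and *Dsg3* 15.5 ± 2.04%, and at E16.5 they held 54.2 ± 12.6% and 29.9 ± 2.53%. In P0 replicate 2 *Dsg3* held 67.7% and in P0 replicate 1 23.4%. *Pkp1* made up 28 ± 5.21% of plakophilin transcripts at E13.5, 60.3 ± 2.81% at E15.5 and 63.7 ± 6.38% at P0, while *Pkp2* went from 20 ± 5.39% to 6.45 ± 2.69% between the first and last stage. *Dsc3* held 40.7 to 48.9% of desmocollin transcripts in the 6 libraries of E13.5 and E14.5, but 14.3 to 71.8% at E16.5 and 8.62 to 58.2% at P0.

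**Figure D2:**
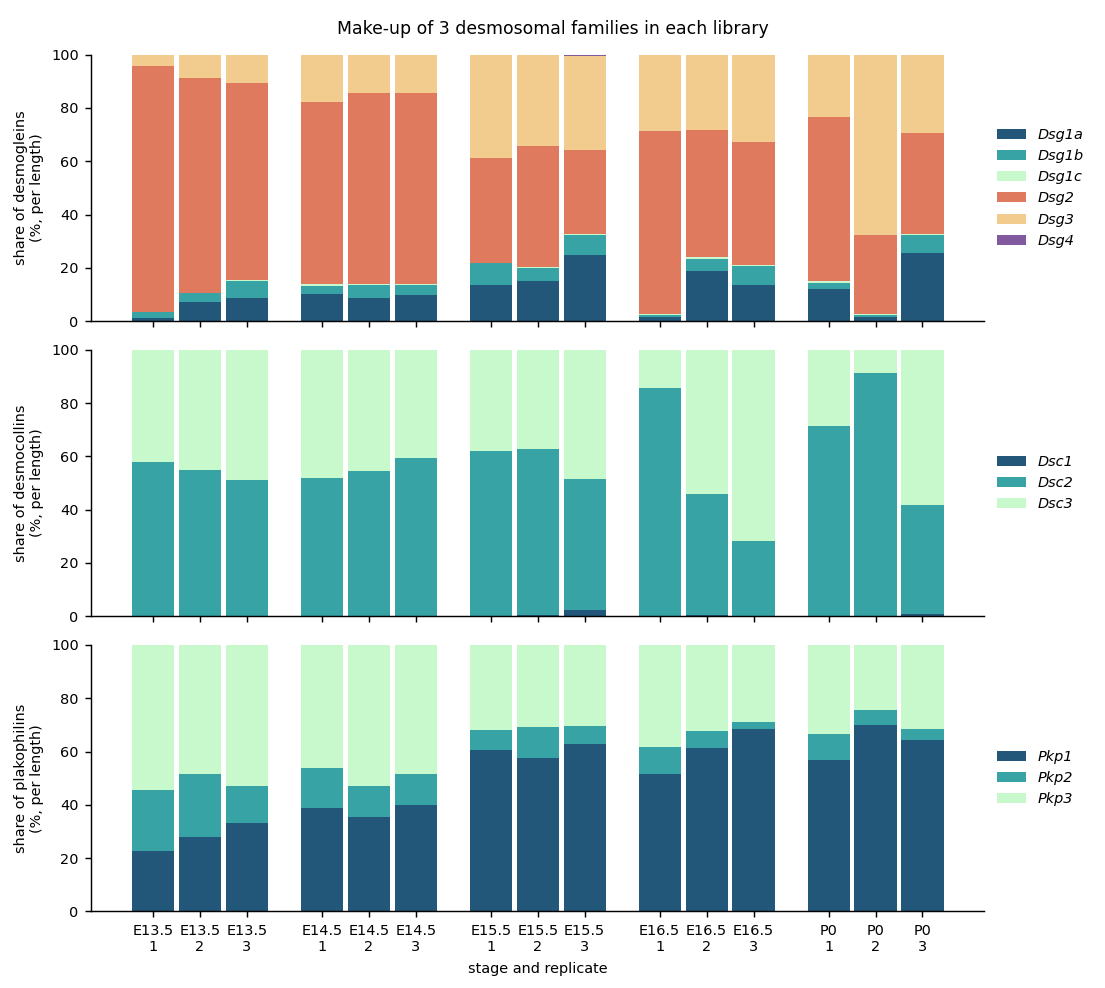
Share of each gene in the desmogleins, desmocollins and plakophilins of each library, in percent of the summed CPM per kilobase of its family; bars are single libraries ordered by stage and replicate. The *Dsg3* share is 4.21 to 17.9% in the first 6 libraries and 23.4 to 67.7% in the last 9, and the *Dsc3* share varies most within E16.5 and P0.

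Ratios within a library do not depend on how it was scaled or on how much epithelium it held, as long as both genes come from the same cells. That condition was not tested, and *Dsg2* and *Pkp3* are known from more epithelia than *Dsg3* and *Pkp1*. The summed basal stratified markers went from 162.8 to 453.5 CPM at E13.5 to 933.7 to 3069 CPM at P0. Multiciliated markers went from 31.1 to 35.49 CPM to 331.5 to 619.3 CPM. The part of epithelial makeup in the ratios was not tested. Of 6 ratios compared between the 6 libraries of E13.5 and E14.5 and the 9 of E15.5, E16.5 and P0, 2 passed (two-sided exact permutation test, Benjamini-Hochberg adjusted over the 6). The geometric mean ratio of *Dsg3* to *Dsg2* per length was 0.141 in the earlier and 0.77 in the later libraries, a log2 difference of 2.45 (p 0.0002, adjusted 0.000599). The ratio of *Pkp1* to *Pkp3* was 0.643 and 1.96, a log2 difference of 1.61 (p 0.0002, adjusted 0.000599). For both ratios all 9 later libraries lay above all 6 earlier ones, and 0.0002 is the smallest p that 5005 splits allow. *Pkp1* exceeded *Pkp3* in 9 of the 9 later libraries, by 1.34-fold to 2.84-fold, and in none of the earlier ones. *Dsg3* exceeded *Dsg2* in E15.5 replicate 3 and P0 replicate 2 only.

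The other 4 ratios did not pass. *Dsc3* to *Dsc2* had a log2 difference of -0.452 (p 0.491, adjusted 0.491), and its range widened from 0.69 to 0.958 in the earlier libraries to 0.0947 to 2.57 in the later ones. The summed *Dsg1* copies to *Dsg3* had a log2 difference of -1.25 (p 0.0787, adjusted 0.157) and *Jup* to *Dsp* one of -0.334 (p 0.3, adjusted 0.36). Total desmogleins to total desmocollins, the partners that bind across the gap, stood at a geometric mean of 0.5 in the earlier and 0.573 in the later libraries (log2 difference 0.198, p 0.22, adjusted 0.329). The tests of *Dsg1* copies and of total desmogleins include the uncertain counts of the *Dsg1* copies.

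**Figure D3:**
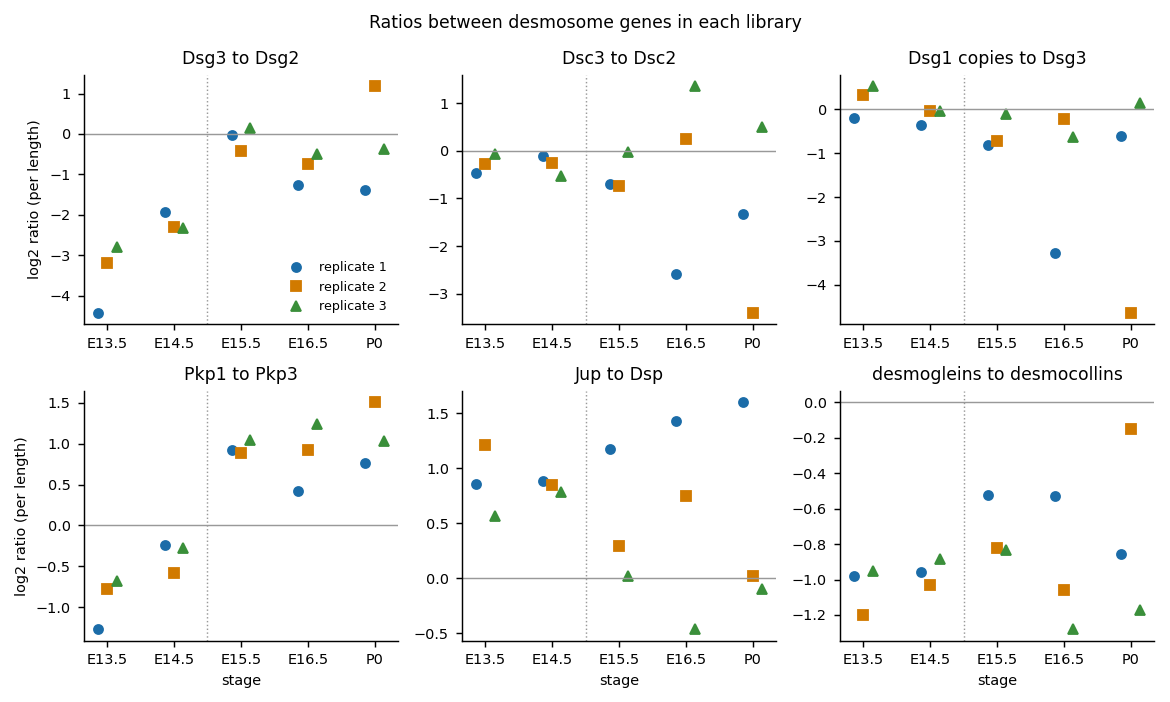
Log2 ratio of the 6 gene pairs or sums in each library, from levels per length, by stage; symbols are replicates, the solid line marks a ratio of 1 and the dotted line divides the 2 groups tested. *Dsg3* to *Dsg2* and *Pkp1* to *Pkp3* lie higher in all 9 libraries right of the dotted line, and *Dsc3* to *Dsc2* spreads to both sides of its earlier range.

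Relative to other epithelial transcripts, 3 members were higher at P0 than at E13.5 and the rest did not pass. For this comparison counts were scaled to the summed counts of the 8 pan-epithelial genes *Epcam*, *Cdh1*, *Esrp1*, *Esrp2*, *Grhl2*, *Spint1*, *Rab25* and *Ap1m2*, whose sum was 154.1 to 307.2 CPM at E13.5 and 282.7 to 622.8 CPM at P0. Under it the median log2 fold change over all tested genes was -0.968. The sum takes in all epithelia of the palate, whose makeup changed. Between E13.5 and P0 the markers of multiciliated cells went from 31.1 to 35.49 CPM to 331.5 to 619.3 CPM. Those of glandular and nasal secretory cells went from 1.061 to 1.423 CPM to 1006 to 1501 CPM. The summed periderm markers went from 39.06 to 92.89 CPM to 205.8 to 900.4 CPM, but did not move alike. Relative to the reference, *Krt6a* (log2 fold change 6.27) and *Krt17* (1.99) passed edgeR's test as higher and *Grhl3* as lower (-1.59, adjusted p 0.0217). *Sfn* (1.18), *Cldn23* (0.338) and *Gabrp* (0.109) did not pass. *Dsg3* had a log2 fold change of 3.35 (standard error 0.735, adjusted p 0.00175), *Pkp1* of 2.75 (standard error 0.576, adjusted p 0.00124) and *Perp* of 1.39 (standard error 0.475, adjusted p 0.0238), in edgeR's test. *Dsg3* and *Pkp1* passed in each of 15 fits that left out 1 library, while the adjusted p of *Perp* was 0.0557 to 0.0938 without E13.5 replicate 1, E13.5 replicate 2, P0 replicate 2 or P0 replicate 3, which left a count of 2. In the fits where *Perp* did not pass, 21.2% to 33.8% of all tested genes were called in either direction. With all libraries 9.79% of all tested genes were called higher and 32.1% lower. *Dsg1a* had a value of 2.02 (adjusted p 0.0969), *Pkp3* of 0.82 (0.183), *Dsc2* of 0.706 (0.243), *Dsc3* of 0.379 (0.731) and *Dsp* of 0.174 (0.799), all as log2 fold changes with adjusted p in parentheses. *Dsg2* and *Jup*, positive relative to library totals, were at -0.251 (adjusted p 0.689) and -0.271 (adjusted p 0.671).

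The choice of reference changed several of these values. The summed level of the 6 basal stratified markers was 162.8 to 453.5 CPM at E13.5 and 933.7 to 3069 CPM at P0, so scaling to it lowers every gene: the median log2 fold change was -2.79 over all tested genes and -1.12 over the members. The genes of this sum did not move alike between E13.5 and P0. Relative to the pan-epithelial reference, *Krt15* (log2 fold change 2.93) and *Krt5* (2) passed edgeR's test as higher. *Itgb4* (1.14), *Krt14* (1.1), *Col17a1* (0.934) and *Trp63* (-0.101) did not pass. Scaled to the basal stratified sum, *Dsg3* was still called higher (log2 fold change 1.76, adjusted p 0.024), against 4.21% of all tested genes. *Pkp1* no longer passed (0.959, adjusted p 0.15) and *Perp* was at -0.477 (adjusted p 0.472). *Dsg2*, *Jup*, *Dsc3* and *Dsp* were called lower (-2.2 to -1.75), 4 of 10 members where 76.3% of all tested genes were, so these calls are no result about the members. Between E14.5 and E15.5, 0 members passed with the pan-epithelial reference, where 2.24% of tested genes were called higher. *Dsg3* and *Pkp1* had an unadjusted p under 0.05 in that step. Both passed without E15.5 replicate 1, where 48% of all tested genes were called in either direction. Across the 5 stages *Dsg3* (adjusted p 0.00525) and *Pkp1* (adjusted p 0.00169) passed, against 31.5% of tested genes.

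**Figure D4:**
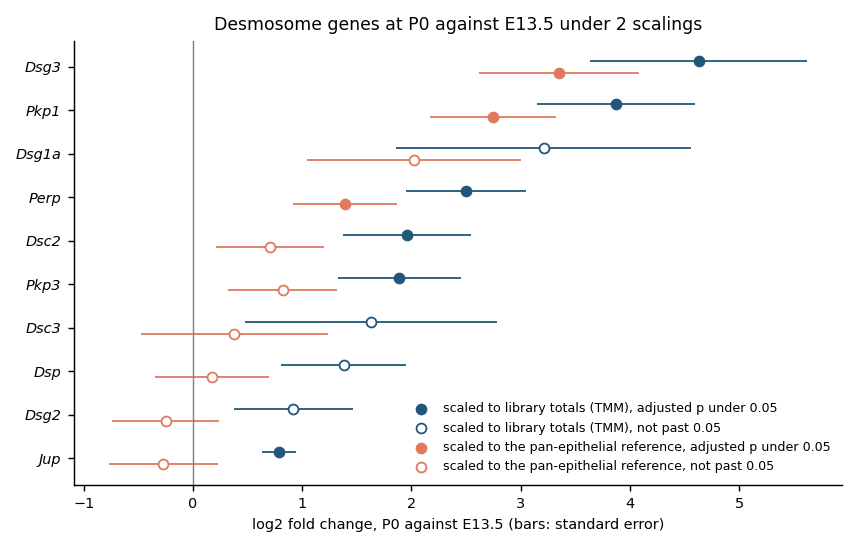
Log2 fold change of each member for P0 against E13.5 with its standard error, scaled to library totals by TMM or to 8 pan-epithelial genes; filled points passed an adjusted p of 0.05 in edgeR's test. With the second scaling all 10 values are lower, 3 of the 6 calls remain (*Dsg3*, *Pkp1* and *Perp*), and *Dsg2* and *Jup* lie below 0.

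Within stages the members varied together from library to library. E15.5 replicate 1 had the lowest value of its stage for 10 of 10 members and E15.5 replicate 3 the highest for all 10. E13.5 replicate 3 was likewise highest for all 10, E16.5 replicate 3 for 9 and P0 replicate 3 for 8, and P0 replicate 1 was lowest for 9. Over the 45 pairs of members, log2 CPM correlated across the 15 libraries with a median r of 0.832 (0.394 to 0.963), and with a median of 0.822 (0.38 to 0.981) after the stage means were removed. These libraries share pools and scaling, and no test was made. *Dsg2* and *Dsp* were the closest pair within stages (0.981), and *Dsg1a* and *Jup* the least close (0.38).

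The order of the libraries by epithelial content was the same in part. The 3 replicates stood in one order by the pan-epithelial sum and by the member for 10 of 10 members at E15.5, 7 at E13.5, 4 at E14.5, 2 at P0 and 0 at E16.5. The pan-epithelial sum was 154.3, 492 and 518.9 CPM in the E15.5 libraries and 282.7, 622.8 and 592.4 CPM at P0. At E16.5 it was 428.4, 288.9 and 358.2 CPM, highest in replicate 1, which was lowest for 8 of 10 members. Within stages the pan-epithelial sum correlated best with *Jup* (r = 0.902) and *Perp* (0.878), and least with *Dsc3* (0.363) and *Dsg1a* (0.264). The basal stratified sum correlated best with *Pkp1*, at 0.995 over all libraries and 0.992 within stages, and then with *Pkp3* (0.965 within stages). Its within-stage r was 0.806 with *Dsc3* and 0.808 with *Dsg1a*. The part of epithelial content in the fold changes was not tested beyond the scalings above.

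**Figure D5:**
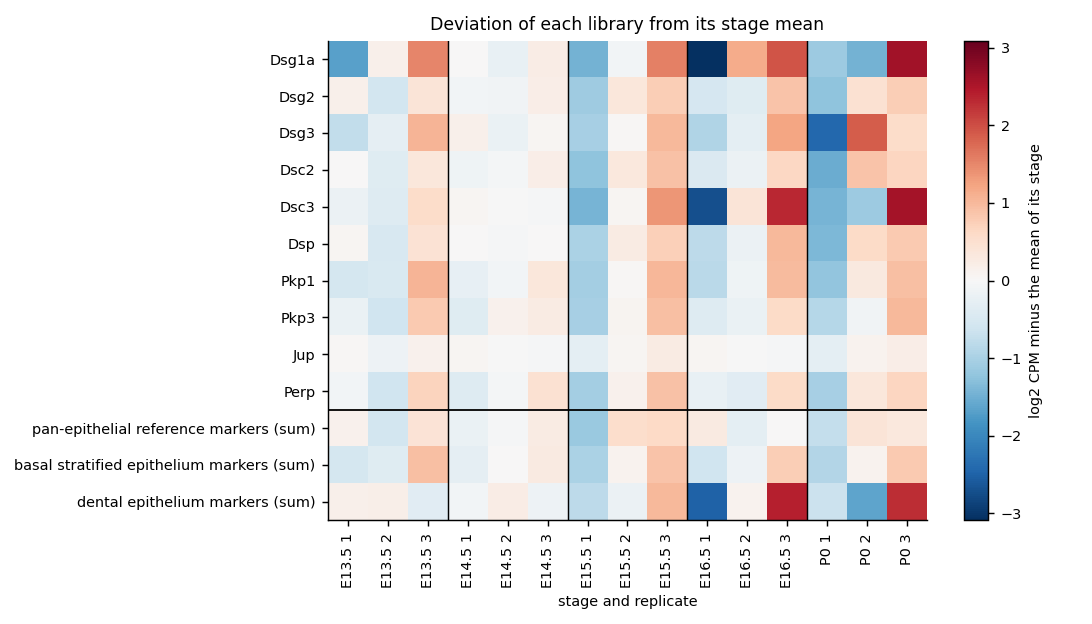
Difference of each library from the mean of its stage in log2 CPM, for the 10 members and for the summed markers of epithelial lists below the line; red is above and blue below the stage mean. E15.5 replicate 1 and P0 replicate 1 are low and replicate 3 of both stages is high for nearly all members, and *Dsc3* is high in replicate 3 of E16.5 and P0, as is the dental epithelium sum.

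Outside the 10 members, 8 further desmosome genes were listed, and 7 had enough counts to be tested. In P0 against E13.5, 5 of the 7 were higher: *Cdsn*, *Ppl*, *Evpl*, *Dsg1c* and *Pkp2*, where 29.8% of all tested genes were. Scaled to the pan-epithelial reference 3 of them passed, *Cdsn* (log2 fold change 4.53, adjusted p 7.79e-05), *Ppl* (1.71, adjusted p 0.01) and *Evpl* (1.18, adjusted p 0.0465), against 9.79% of all tested genes. *Pkp2* was then at -0.101 (adjusted p 0.869) and *Dsg1c* had an adjusted p of 0.231. *Cdsn* encodes corneodesmosin, a glue of desmosomes in the outermost layers, and was at 0.1, 0.0704 and 0.0297 CPM at E13.5 and at 2, 6.07 and 2.83 CPM at P0 (log2 fold change 5.71, standard error 0.616, adjusted p 1.7e-05). It was the only one of the 7 called in the step from E14.5 to E15.5 (1.9, standard error 0.527, adjusted p 0.0212). The plakins *Ppl* (2.94, adjusted p 0.00205) and *Evpl* (2.37, adjusted p 0.00186), which join the cornified envelope to desmosomes, had P0 libraries of 22, 161 and 66.4 CPM and of 17.9, 81.8 and 50.6 CPM. Both lay above their E13.5 libraries, of at most 15.2 and 12 CPM. *Pkp2*, the plakophilin of simple epithelia and heart, had a log2 fold change of 0.965 (adjusted p 0.0462).

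The remaining copies and paralogs were rare. *Dsg1c* did not exceed 0.244 CPM in any library and had 2, 1 and 1 counts at E13.5 and 2, 8 and 1 at P0, at or under the floor of 3 counts in all but 1 of them, so its call rests on few counts and no fold is given. *Dsc1*, a desmocollin of the upper epidermis, was at most 0.0843 CPM at the first 2 stages and reached 2.85 CPM in E15.5 replicate 3 and 1.35 CPM in P0 replicate 3 (P0 against E13.5, adjusted p 0.0633). *Dsg1b* did not pass (log2 fold change 1.85, adjusted p 0.189). *Dsg4*, known from hair, had at most 0.231 CPM, in E15.5 replicate 3, and no count in 10 libraries. That floor corresponds to 0.0435 to 0.14 CPM in these libraries, for counting error only.

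Relative to library totals, 29.8% of all tested genes were higher and 26.8% lower at P0 than at E13.5, and relative to the pan-epithelial reference 9.79% and 32.1% were. Of 12 keratins, the filaments that desmosomes anchor, 10 were higher and 0 lower relative to totals (median log2 fold change 3.08), and 8 and 0 relative to the reference (median 1.99). *Krt5*, the keratin of basal cells, went from 94 ± 73.6 to 806 ± 675 CPM (3.1, adjusted p 0.00748). *Krt15* had a log2 fold change of 4.03 (adjusted p 0.000119) and *Krt13*, a keratin of the upper layers of oral epithelium, one of 11.3 (adjusted p 5.01e-06). Of 9 hemidesmosome genes, which anchor basal cells to the basement membrane, 8 were higher and 0 lower relative to totals (median 1.51) but 1 and 0 relative to the reference (median 0.401). Higher relative to totals were *Plec* (1.85, adjusted p 2.83e-05) and *Itga6* (0.688, adjusted p 0.00379), the latter at -0.351 (adjusted p 0.604) relative to the reference. *Dst* did not pass (0.62, adjusted p 0.109).

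Of 10 adherens junction genes, 3 were higher and 1 lower relative to totals (median -0.0745), and 0 and 2 relative to the reference (median -1.08). Lower with both scalings was *Ctnnb1*, which encodes beta-catenin, the relative of plakoglobin, at 1483 ± 33.9 CPM at E13.5 and 976 ± 101 CPM at P0 (log2 fold change relative to totals -0.603, adjusted p 0.00634, and relative to the reference -1.64, adjusted p 0.0245). Many of these genes are also active in mesenchyme. *Vcl* was higher relative to totals (0.586, adjusted p 0.0201) but at -0.412 (adjusted p 0.554) relative to the reference, and *Ctnna1* did not pass (0.0984, adjusted p 0.561). Of 15 tight junction genes, 6 were higher and 2 lower relative to totals (median 1.46), and 1 and 3 relative to the reference (median 0.338). Relative to totals they included *F11r* at 1.66 (adjusted p 0.00137) and *Tjp1* at -0.763 (adjusted p 0.0219). Of 11 epithelial transcription factor genes, 6 were higher and 0 lower relative to totals (median 1.09), and 1 and 3 relative to the reference (median 0.0118). *Klf4* passed relative to totals (1.41, adjusted p 0.000596) and not relative to the reference (0.447, adjusted p 0.487), and *Trp63*, which encodes p63, passed with neither (1.06, adjusted p 0.173, and -0.101, adjusted p 0.89). Scaled to the basal stratified markers, the median was 0.121 for keratins and below 0 for each of the other lists. In the step from E14.5 to E15.5, 7 keratins, 3 hemidesmosome genes and 1 gene each of the adherens junction, tight junction and transcription factor lists were higher relative to totals, and 0 of these lists' genes were lower.

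Outside the listed desmosome genes, the pattern over the 15 libraries most like the mean of the members was that of *Zfp750* (Pearson r = 0.973), followed by *Tuft1* (0.966), *Col17a1* (0.964), *Sfn* (0.964) and *Serpinb5* (0.96), among 13528 tested genes with a mean of at least 5 CPM. *Zfp750* encodes a factor of keratinocyte differentiation, and its mean level went from 3.53 CPM at E13.5 to 18.2 CPM at P0. *Col17a1* is a hemidesmosome collagen and *Sfn* is known from keratinocytes. Most like *Dsp* alone were *Rassf9* (0.944), *Trp63* (0.929), *Cdcp1* (0.927) and *Tuft1* (0.926). These likenesses describe libraries that share their pools and their scaling.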

How the data were processed

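Per the file headers, the deposited table holds fragment counts per gene from featureCounts 2.0.1, run by the authors on paired reads with the reverse-strand setting and the annotation gencode_m18. Its inputs carry names of trimmed and duplicate-marked alignments. Neither removal of duplicates nor counting of multi-mapping fragments was switched on, so near-identical genes lose counts. The submitters' processing notes also name cutadapt 3.4, FastQC 0.11.9, Bowtie2, HISAT2 2.2.1, SAMtools 1.12 and build mm10, with no order. Gene symbols matched for 54079 of 54232 genes, and 97.7% of positions were those of GENCODE M21 on GRCm38.

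Groups were the stages of the labels. Genes kept by filterByExpr (minimum count 10, by stage) were fitted in edgeR 4.0.16 (R 4.3.3) with TMM factors and 1 coefficient per stage over all 15 libraries, then tested by quasi-likelihood F tests with Benjamini-Hochberg adjustment. Standard errors were the absolute fold change divided by the root of F. CPM are counts divided by the TMM-scaled totals. Correlations used log2 CPM with a prior count of 2, and ratios used counts plus 0.5 per kilobase of the length in the table. The named genes were all members, all further desmosome genes, the 3 most abundant genes of every other list, and the 5 genes most like the mean of the members or like Dsp. A few genes that this rule or the marker lists would name are not reported here, and the dental epithelium sum was computed without one of them, a change made after its values were known. The members and lists were chosen with earlier results of these data known. Alternatives were DESeq2 1.42.0, its size factors or upper-quartile scaling in edgeR, 2 other filters, summed Dsg1 copies, other epithelial references, a replicate block, only the libraries compared, a pseudocount of 5 and leaving out each library. The procedure was tested on simulated data. Sequences came from the RefSeq promoter table, which held 2 of the 10 members, and chromosome 18 sequences are not shown. Replicates are separate pools in the labels, with no statement on litters, so p-values of the stage fits measure the spread between these pools. The permutation test of the ratios mixed libraries of different stages, so its p does not measure the spread between pools alone.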

Additional observations from a re-analysis of the deposited data

How the results depend on the processing

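Normalization, filters, DESeq2 and summed Dsg1 copies left the number of members called within 1.5 times that reported in every comparison. With DESeq2, 8 members passed for P0 against E13.5, 3 for E15.5 against E14.5 and 7 across stages. Of all tested genes, DESeq2 called 59.6%, 32.5% and 67.8% in these comparisons. For E15.5 against E14.5 the count was 4 with only the 6 libraries compared, where 32.3% of all tested genes were called. It was 0 to 4 when single libraries were left out, where 10.2% to 26.3% were called. For P0 against E13.5 leaving out single libraries gave 4 to 9 members (46.7% to 56.9% of all tested genes). Across stages it gave 4 to 7 (50.2% to 59%). With the pan-epithelial reference these fits gave 0 to 2 for E15.5 against E14.5 (1.96% to 48% of all tested genes). They gave 2 to 4 for P0 against E13.5 (21.2% to 56.5%). The basal stratified reference gave 5 for P0 against E13.5, 1 higher and 4 lower, where 4.21% of all tested genes were higher and 76.3% lower.

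Signs also changed. Relative to library totals, the log2 fold change of Dsc3 for P0 against E13.5 was -0.783 to 2.17 when single libraries were left out, negative without P0 replicate 3. For E15.5 against E14.5 with the basal stratified reference, Dsc2 was at -0.209, Dsc3 at -0.372, Dsp at -0.542, Pkp3 at -0.667 and Perp at -0.332. In that step Jup was at 0.0885 with Cdh1 left out of the pan-epithelial reference, and leaving out single libraries gave Pkp3 -0.133 to 0.226, Jup -0.632 to 0.139 and Dsc3 -0.128 to 0.578. For P0 against E13.5 the basal stratified reference gave Dsc2 -1.17, Dsc3 -1.79, Dsp -1.75, Pkp3 -1.08 and Perp -0.477, and leaving out single libraries with the pan-epithelial reference gave Dsc3 -1.6 to 0.874 and Dsp -0.0722 to 0.437. Scaling to the basal stratified reference shifts every gene in the same direction, so a sign under it is relative to a marker sum that rose itself. Under this scaling the median over all tested genes was -1.09 for E15.5 against E14.5 and -2.79 for P0 against E13.5. The cause of the sign changes was not tested. Ratios that passed did so in every one of the 15 fits without a library and with a pseudocount of 5.

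The replicate numbers paired libraries in part at most. Of 30 pairs of libraries with the same number, 9 had deviations correlated above 0.1, and 7 of 15 libraries correlated best with their own number. By number, 2 of 10 pairs of replicates 1, 1 of 10 of replicates 2 and 6 of 10 of replicates 3 were above 0.1 (replicates 3: -0.102 to 0.548). With the replicate block 8 members passed for P0 against E13.5 (also Dsg1a, adjusted p 0.0196, and Dsp, 0.0413), 3 for E15.5 against E14.5 (also Perp, 0.0418) and 7 across stages (also Dsg1a, 0.0467). Of all tested genes 56.9%, 26.5% and 59.4% were called with the block in these comparisons. Relative to the pan-epithelial reference, Dsc3 was then at -0.343 for P0 against E13.5. With 3 pools per stage and replicate ranges of up to 37.5-fold (Dsg1a at E16.5), the standard errors of Dsp (0.574) and Dsg2 (0.546) for P0 against E13.5 on the log2 scale limit what can be called. Dsg1c and Dsg4 stayed near the detection floor.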
